A study of Mus musculus with 18 samples.

Results

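The genes described here are 10 genes of enteroendocrine cells, taken by symbol from a count table of 43346 genes: the granins Chga and Chgb, the peptide hormones Cck, Gcg, Sct, Pyy, Gip, Sst and Nts, and Tph1, the enzyme that limits serotonin synthesis in the gut. Each symbol named 1 row, and no value chose a member. All 10 passed the filter of a mean count above 0 that left 26717 genes for testing. RNA had been sequenced from Lgr5+ cells of mouse small intestine (SI) and large intestine (LI) crypts, sorted by flow cytometry as live EPCAM+ cells at 3 levels of GFP. High GFP stood for cells at the crypt centre, medium for the border and low for the cells beyond it, called row >3. This gave 6 groups of 3 replicates, 18 libraries in all. All 6 groups shared 1 genotype (Lgr5_eGFP_Iris_creERT2, in which GFP and an inducible Cre are written from the Lgr5 locus), the C57BL/6 strain, an age of 8 to 20 weeks and no treatment, so no group lacked the transgene. The comparisons asked how the 3 levels of Lgr5 differed within a site and how SI and LI differed at a given level.

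Enteroendocrine cells are scattered hormone-secreting cells of the gut epithelium that, like every other epithelial lineage, descend from Lgr5+ stem cells. A progenitor that switches on Neurog3, and then Neurod1, becomes one of several subtypes, and each subtype stores its peptides with granins in dense-core granules until nutrients or other signals trigger release. The subtypes are unevenly spread along the gut: Gip, Cck and Sct are textbook hormones of the proximal SI, Nts of the distal SI, and Gcg, which encodes glucagon-like peptides in the gut, and Pyy of the distal SI and the LI. Enterochromaffin cells, which use Tph1, and somatostatin cells, which use Sst, occur in both. Lgr5 is a marker of stem cells, not of hormone cells, so the question is how RNA of the 10 genes was spread over the levels of GFP. In bulk samples such as these, fewer hormone cells and less hormone RNA per cell cannot be told apart.

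The promoters of these genes differ in the short motifs they carry, and 6 of them are shown as examples. Sequences are from RefSeq on GRCm38.p6, where all 10 genes matched and gave 12 promoter entries. Each is the 200 bases before the annotated start, 5′ to 3′ on the gene's strand, with matches to any of 5 searched motifs in capitals. The motifs, searched on both strands in the 250 bases before the start, were the cAMP response element TGACGTCA, its core TGACGT, which lies inside the full element, the E-box CAGATG that NEUROD1-type factors bind, the GATA motif AGATAA and the TATA box TATAAA. Chgb lies on the plus strand at chr2:132781442-132781641, and Gip on the plus strand at chr11:96024345-96024544. The other 4 are on the minus strand, Sst at chr16:23890845-23891044, Gcg at chr2:62483654-62483853, Cck at chr9:121495695-121495894 and Sct at chr7:141279134-141279333.
Chgb: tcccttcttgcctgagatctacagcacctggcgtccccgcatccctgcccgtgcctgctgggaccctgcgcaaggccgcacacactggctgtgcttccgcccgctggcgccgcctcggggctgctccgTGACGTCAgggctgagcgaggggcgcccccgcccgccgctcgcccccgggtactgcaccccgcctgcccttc
Sst: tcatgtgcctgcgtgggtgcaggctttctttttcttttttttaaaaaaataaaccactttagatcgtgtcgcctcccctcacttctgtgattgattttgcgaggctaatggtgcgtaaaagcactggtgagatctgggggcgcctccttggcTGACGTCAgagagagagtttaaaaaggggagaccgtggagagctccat
Gcg: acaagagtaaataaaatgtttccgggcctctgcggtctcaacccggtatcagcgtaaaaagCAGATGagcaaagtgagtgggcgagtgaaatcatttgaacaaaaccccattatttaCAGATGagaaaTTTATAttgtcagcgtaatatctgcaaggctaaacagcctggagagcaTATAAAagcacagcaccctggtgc
Cck: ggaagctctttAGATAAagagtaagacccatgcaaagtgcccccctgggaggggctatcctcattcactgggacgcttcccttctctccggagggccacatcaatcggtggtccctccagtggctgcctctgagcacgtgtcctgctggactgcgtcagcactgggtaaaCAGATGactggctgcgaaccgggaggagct
Gip: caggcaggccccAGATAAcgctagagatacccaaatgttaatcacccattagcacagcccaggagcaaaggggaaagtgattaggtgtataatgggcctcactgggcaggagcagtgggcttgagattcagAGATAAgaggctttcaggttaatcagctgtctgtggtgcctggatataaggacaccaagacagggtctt
Sct: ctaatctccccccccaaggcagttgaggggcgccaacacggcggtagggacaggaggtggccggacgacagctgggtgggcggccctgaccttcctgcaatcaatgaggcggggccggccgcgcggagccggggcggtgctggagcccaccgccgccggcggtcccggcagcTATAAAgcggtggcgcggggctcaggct

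The full cAMP response element stood in Chgb, with its first base at -72 counted from the start, and in Sst, at -48. Of all 32851 RefSeq promoters, 1.55% held it. Its core was also in Chga, at -44, and in 6.47% of all promoters. Gcg held the E-box at -139 and -83, and Cck at -30. A further match lay in Sct at -242, outside the stretch shown, and 14.4% of all promoters had this motif. The GATA motif occurred in Gip at -188 and -69, in Cck at -189 and in Nts at -131, and in 9.99% of all promoters. The TATA box letters stood at -24 in Gcg and at -28 in Sct, with a match on the other strand in Gcg at -72, and 12.4% of all promoters held them. Such matches describe the sequence and are not evidence of a bound site.

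Library totals ran from 8312093 to 31940965 counts, with a median of 21934851. Within each replicate, Lgr5 was lower at each lower sorted level. In SI it went from 120–255 CPM (counts scaled to library size with TMM factors) in centre to 1.40–13.5 in row >3. In LI it went from 112–127 to 6.70–24.0 between the same levels. SI border was at 75.7, 98.1 and 7.84 CPM in replicates 1, 2 and 3. Replicate 3 of the SI border thus lay within the SI row >3 range. The 3 SI libraries of replicate 3 stood apart from the other SI libraries. They held genes that mark the LI: Car1, a carbonic anhydrase of colon cells, was at 82.1, 1140.3 and 1939 CPM in their centre, border and row >3 libraries, against at most 10.4 CPM in SI replicates 1 and 2. Cyp2c55, a cytochrome P450 gene of the LI, was at 49.0, 505 and 775 CPM in the same 3 libraries and at most 5.50 CPM in the other 6. In LI, Car1 was at 123–232 CPM in centre, 170–579 in border and 795–1348 in row >3. The border and row >3 libraries of SI replicate 3 thus exceeded every LI library of their level in Car1. Genes of the SI were nevertheless present in the 3 SI libraries of replicate 3. Lyz1, a Paneth cell lysozyme, was at 46.7 to 601 CPM there, against at most 0.0783 CPM in LI. Calls of the members that rest on these 3 libraries are given with and without them. Correlations, searches for genes of like pattern, length-scaled means and most calls of other gene lists include them throughout. The 9 members other than Sct were also low there, and whether the LI-like content had a part in that was not tested.

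Markers of cells outside the epithelium were at or near 0 for some types and measurable for others. Of 8 mast cell genes, which could also bring Tph1, 2 had any count, and their sum was at most 0.133 CPM. Of 6 exocrine pancreas genes 1 had a count, at most 0.0459 CPM, and of 5 pancreatic islet genes 2 did, at most 1.44 CPM. Sums over the enteric glia list stayed at or under 5.004 CPM and those over the stromal list at or under 11.1 CPM. The enteric neuron list reached 16.9 CPM, nearly all of it Chat, at 16.6 CPM, a gene that tuft cells also use. The immune list ran from 3.60 to 77.7 CPM. Its highest single gene was Itgam, a myeloid integrin, at up to 67.6 CPM in SI row >3, and Itgam was higher in SI than in LI row >3 cells (log2 fold change 4.95, SE 0.842, adjusted p = 0.00452 by edgeR's quasi-likelihood test). With replicate numbers blocked within site, Itgam also rose from SI centre to row >3 (1.46, SE 0.266, adjusted p = 0.00037), as did Ret of the neuron list (1.49, SE 0.368, adjusted p = 0.00404). Cd79a, a B cell gene, was also called lower in that fit and was at 0 in all 3 SI row >3 libraries. Without the SI libraries of replicate 3, Itgam (1.87, SE 0.253, adjusted p = 9.8e-06), Ptprc, Chat and Ret were called higher in SI row >3 than in centre and Cd79a lower. The part of these cells in the members' values was not tested.

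The granins held over 50% of the members' summed CPM in 14 of the 18 libraries, all but the 3 SI libraries of replicate 3 and LI row >3 replicate 1. Chgb, a granin of dense-core granules, had the highest length-scaled level of the 10 in SI row >3, at 67.6 ± 55.6 CPM per kilobase of exon (SD, n = 3), and in LI centre, at 51.7 ± 8.15. In SI centre its normalised counts (the authors' counts divided by a size factor of each library) were 591, 3547 and 31.7 in replicates 1, 2 and 3, in SI border 4420.1, 3392 and 249.3, and in SI row >3 4153, 6803 and 507. Across LI the values were 2352, 2973 and 3047 in centre, 430.1, 2647 and 1998 in border and 743, 2711 and 3091 in row >3. The SI libraries of replicate 3 and, in LI, the border and row >3 libraries of replicate 1 were the low ones, and every pair of groups overlapped.

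Chga, the other granin and a general marker of enteroendocrine cells, followed Chgb. Its normalised counts in SI were 289, 1435 and 27.0 in centre, 1589, 1699 and 228 in border, and 1934, 2319 and 244 in row >3. In LI they were 486, 667 and 1072 in centre, 89.9, 776 and 704 in border, and 324, 802 and 1010.0 in row >3. The ratio of Chgb to Chga counts, a within-library measure with no scaling between libraries, lay between 1.09 and 4.84 with a median of 2.81, so Chgb had more reads in all 18 libraries. The granins' share of the summed CPM of the 10 genes was 67.8% to 88.2% in SI replicates 1 and 2 and 15.8% to 44.1% in SI replicate 3. Two-sided tests of edgeR's quasi-likelihood model called neither granin in any comparison, and no alternative fit did.

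**Figure D1:**
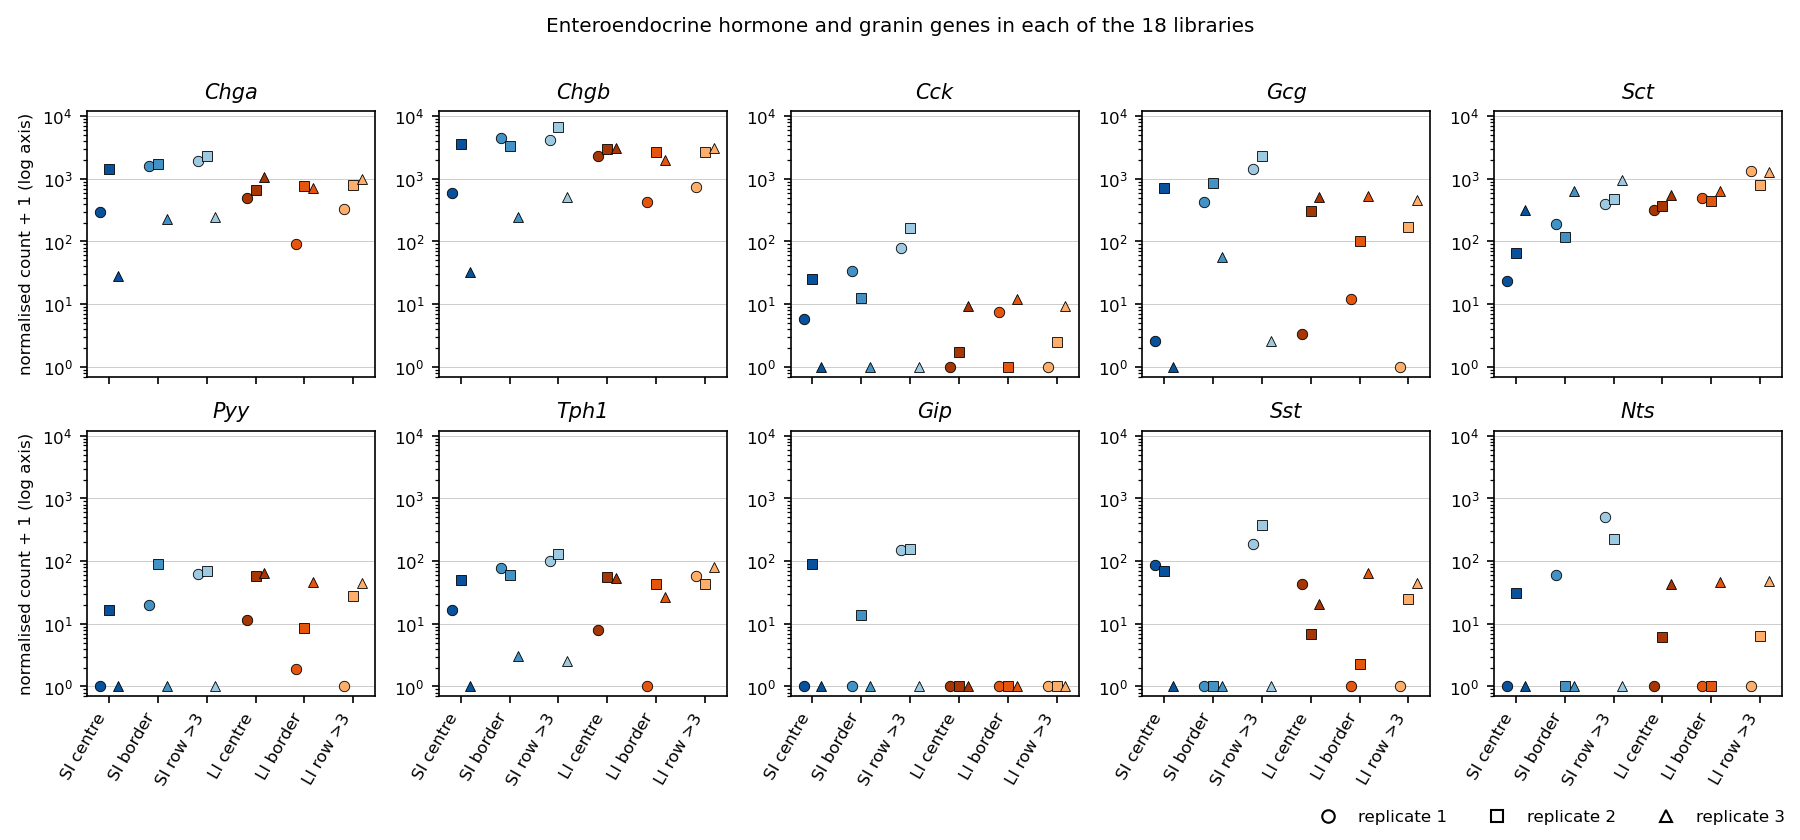
Normalised counts plus 1 (log axis) of the 10 genes in each of the 18 libraries, 1 panel per gene, with circles, squares and triangles for replicates 1, 2 and 3, blue for SI and orange for LI. Triangles lie at the bottom of the SI columns in every panel but that of Sct, and Gip has no point above 1 in LI.

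Gcg was the most abundant of the peptide hormones other than Sct in SI row >3, where its length-scaled level was 39.9 ± 37.1 CPM per kilobase. Its normalised counts in SI were 1.62, 714 and 0 in centre, 427, 864 and 54.7 in border, and 1413, 2275 and 1.56 in row >3. In LI they were 2.35, 302 and 511 in centre, 11.01, 99.8 and 532 in border, and 0, 170.1 and 457 in row >3. Replicates of 1 group thus ranged from 2.35 normalised counts or fewer to 457 or more in SI centre, SI row >3, LI centre and LI row >3.

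Pyy, the peptide that L cells release together with glucagon-like peptides, was at 0, 15.7 and 0 normalised counts in SI centre, 18.9, 88.1 and 0 in SI border, and 60.2, 69.5 and 0 in SI row >3. In LI centre it was at 10.6, 56.1 and 63.0, in LI border at 0.917, 7.49 and 46.2, and in LI row >3 at 0, 26.6 and 44.3. The gene was thus highest in border or row >3 libraries in SI and, in each replicate, in centre libraries in LI. Nts, neurotensin, a hormone of the distal SI, had 0, 29.5 and 0 normalised counts in SI centre, 59.0, 0 and 0 in SI border, and 507, 221 and 0 in SI row >3. Its values in LI were 0, 5.10 and 42.5 in centre, 0, 0 and 44.7 in border, and 0, 5.31 and 47.2 in row >3. SI row >3 replicates 1 and 2 were above all other libraries.

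Cck, the hormone that contracts the gall bladder, was found in replicates 1 and 2 of SI. It had 4.86, 23.9 and 0 normalised counts in SI centre, 33.1, 11.7 and 0 in SI border, and 78.7, 162 and 0 in SI row >3. LI values were at most 11.2, with 0, 0.729 and 8.18 in centre, 6.42, 0 and 11.2 in border, and 0, 1.52 and 8.49 in row >3. Gip, an incretin made by K cells, was found in 4 of the 18 libraries, all in SI. It was at 90.2 normalised counts in SI centre replicate 2, 12.96 in SI border replicate 2, and 150.5 and 153 in SI row >3 replicates 1 and 2. A count of 0 was found in the remaining SI libraries and in all 9 LI libraries.

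Sst, somatostatin, which restrains the release of other gut hormones, was at 84.3, 68.1 and 0 normalised counts in SI centre and at 185, 376 and 0 in SI row >3, and at 0 in all 3 SI border libraries. Its LI values were 42.3, 5.83 and 19.6 in centre, 0, 1.25 and 64.8 in border, and 0, 23.5 and 43.4 in row >3. Pooled over 3 libraries, Sst was at least 37.5-fold lower in SI border than in SI centre, with the border set to the floor of 3 counts over the group, but the difference did not pass edgeR's quasi-likelihood test (adjusted p = 0.647). Tph1 was at 15.4, 49.7 and 0 normalised counts in SI centre, 77.9, 59.6 and 2.10 in SI border, and 101, 128 and 1.56 in SI row >3. In LI its values were 7.06, 55.4 and 52.3 in centre, 0, 42.4 and 26.1 in border, and 57.4, 42.5 and 80.2 in row >3. LI row >3 was the only group with no Tph1 value under 40 normalised counts.

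Sct, secretin, which stimulates bicarbonate secretion, had another distribution. Its normalised counts in SI were 22.7, 65.4 and 314 in centre, 191, 117 and 641 in border, and 400.1, 474 and 949 in row >3. In LI they were 314, 374 and 541 in centre, 496, 443 and 636 in border, and 1337, 806 and 1304 in row >3. Replicate 3 was the highest of each SI group, the reverse of the other 9 genes. Row >3 was above centre in all 3 pairs of libraries of each site, with no overlap between the groups in either, as for 25.1% of all genes in SI and 14.9% in LI. By length-scaled level Sct was the first of the 10 genes in LI row >3, at 90.4 ± 22.4 CPM per kilobase against 40.7 ± 23.7 for Chgb, and the second in LI centre, at 32.3 ± 9.81.

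In SI row >3, Chgb was followed by Sct (46.3 ± 23.5 CPM per kilobase), Gcg, Chga (26.4 ± 19.3), Sst (12.5 ± 12.6), Nts (9.44 ± 9.90), Gip (7.14 ± 6.18), Pyy (3.32 ± 2.89), Cck (2.97 ± 3.00) and Tph1 (0.602 ± 0.521). No 2 neighbours in that order differed by more than their SDs. The place of Sct rested on replicate 3, at 73.2 CPM per kilobase beside 4.39 for Chga and 0.0520 for Gcg. In replicates 1 and 2 Sct was at 30.1 and 35.5, below Gcg (45.9 and 73.6) and Chga (34.1 and 40.7). In LI row >3, Sct and Chgb were followed by Chga (13.2 ± 6.57), Gcg (7.15 ± 7.87), Pyy (1.92 ± 1.80), Sst (1.58 ± 1.53), Nts (0.714 ± 1.05), Tph1 (0.494 ± 0.155) and Cck (0.130 ± 0.176), with Gip at 0. The steps from Sct to Chgb, Chgb to Chga and Tph1 to Cck exceeded both SDs in LI row >3, and the other steps did not.

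Cck was the member that rose from centre to row >3 of SI, by 3.16 on the log2 scale (SE 0.923, edgeR's quasi-likelihood test, Benjamini-Hochberg adjusted p = 0.0217). All 10 members had a log2 fold change above 0, from 1.37 for Chga to 4.71 for Nts, with a median of 2.05 against 0.00 over all genes tested. Of all genes, 13.2% were called in this comparison, so 1 of 10 members called is below that share. Nts (log2 fold change 4.71, SE 1.67, adjusted p = 0.0882) and Sct (2.18, SE 0.794, adjusted p = 0.0998) reached an unadjusted p under 0.05 and missed the adjusted threshold. The other values were 3.22 (SE 1.53) for Pyy, 2.38 (SE 2.01) for Gcg, 1.93 (SE 1.07) for Tph1, 1.91 (SE 1.31) for Sst, 1.87 (SE 1.24) for Gip, 1.46 (SE 1.32) for Chgb and 1.37 (SE 1.17) for Chga. DESeq2 called Sct in place of Cck, with 15.9% of all genes called. The call of Cck was also lost without SI centre replicate 1 (adjusted p = 0.107), SI centre replicate 3 (0.0716) or SI row >3 replicate 2 (0.137), and its adjusted p ranged from 4.7e-05 to 0.378 over the alternatives.

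The libraries of a site were treated as paired by replicate number, because their deviations from the group means moved together in each pair. This choice rests on these same data, since the labels do not say which mouse gave which library. In SI the LI-like content shared by the libraries of replicate 3 enters these deviations, and its part in them was not tested. With replicate number blocked inside each site, 6 of the 10 members rose from SI centre to row >3, where 22.8% of all genes were called, and 12.4% were called higher. These were Sct (log2 fold change 2.52, SE 0.331, adjusted p = 4.2e-05, range over the alternatives 5.4e-07 to 0.30), Nts (4.66, SE 0.663, adjusted p = 8.3e-05, range 1.2e-05 to 0.40) and Cck (3.08, SE 0.537, adjusted p = 0.000167). They also included Pyy (3.14, SE 0.758, adjusted p = 0.00363, range 0.0021 to 0.47), Tph1 (1.86, SE 0.523, adjusted p = 0.0115, range 0.012 to 0.59) and Gcg (2.86, SE 0.814, adjusted p = 0.0260, range 0.026 to 0.92). Not called were Chga (1.70, adjusted p = 0.0606), Chgb (1.97, adjusted p = 0.0740), Sst (1.80, adjusted p = 0.0833) and Gip (1.94, adjusted p = 0.127). Sct, Gcg, Tph1, Chga and Chgb were higher in row >3 in all 3 pairs of libraries, and the other 5 genes in 2 pairs, with replicate 3 at 0 in both libraries. Without the SI libraries of replicate 3 and without the block, Sct, Nts and Cck were called (17.1% of all genes), and with the block Sst joined the 6 (23.7%).

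In LI no member changed from centre to row >3 by edgeR's quasi-likelihood test, at an unadjusted p under 0.05 or by DESeq2, and of all genes 0.0187% were called by edgeR and 0.348% by DESeq2. The member closest to a call was Sct, 1.48 higher on the log2 scale in row >3 (SE 0.747, adjusted p = 0.759), and the block within site put it past the threshold, at 1.47 (SE 0.269, adjusted p = 0.0102, range over the alternatives 9.3e-05 to 1), with 2.59% of all genes called. Tph1 stood at 0.55 (SE 1.01) and Chgb at -0.35 (SE 1.30), and 3 of the 10 members were above 0 and 6 below. The sign for Chgb rests on LI row >3 replicate 1, without which it was 0.07. Between border and centre no member passed edgeR's quasi-likelihood test in either site, at an unadjusted p under 0.05, by DESeq2 or with the block, and edgeR called 0.0112% of all genes in SI and 0.0% in LI. The shares were 0.782% and 0.0% by DESeq2, and 2.32% and 0.0% with the block. Sct was 1.29 higher on the log2 scale in SI border than in SI centre (SE 0.795) and 0.35 higher in LI border than in LI centre (SE 0.741).

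**Figure D2:**
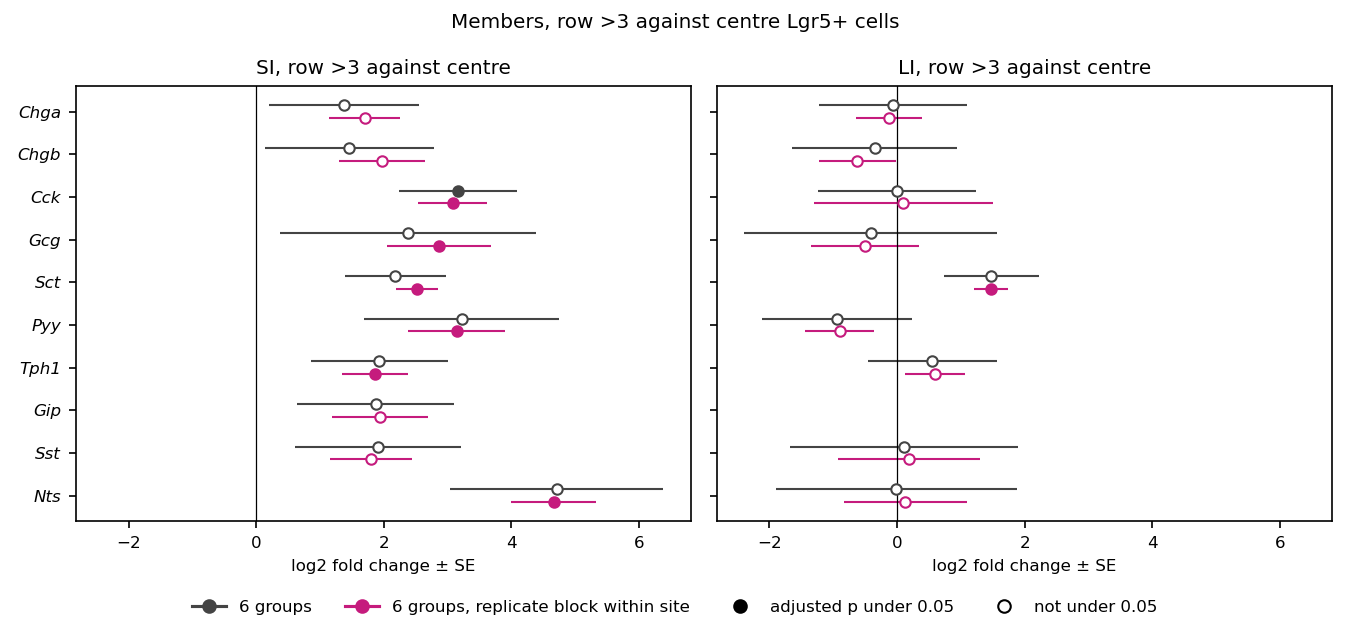
Log2 fold change of row >3 against centre with its SE for each member, in SI (left) and LI (right), from the fit of 6 groups (grey) and the same fit with a replicate block within each site (pink), with filled points at an adjusted p under 0.05. All SI points lie right of 0, with Nts farthest out at 4.71, and LI points other than Sct lie within 1 of 0 (Gip has no counts in LI and is not drawn).

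Whether the change from centre to row >3 differed between the sites was tested as an interaction. No member was called by edgeR's quasi-likelihood test or by DESeq2, and Pyy was the only one at an unadjusted p under 0.05, with a difference of 4.15 on the log2 scale (SE 1.95, adjusted p = 0.741). Of all genes edgeR called 0.0% and DESeq2 0.558%. With the block within site Pyy was called, at 4.04 (SE 0.945, adjusted p = 0.0291, range over the alternatives 0.0057 to 1), and 2.32% of all genes were called. In that fit Pyy was 3.14 higher in row >3 than in centre in SI and 0.90 lower in LI. The corresponding difference for Sct was 0.70 (SE 1.07, adjusted p = 1), and 1.88 without the SI libraries of replicate 3 (SE 0.495, adjusted p = 0.0399, range over the alternatives 0.0059 to 1, with 3.27% of all genes called). For border against centre no member was called, at an unadjusted p under 0.05, by DESeq2 or with the block, while edgeR called 0.0%, DESeq2 0.00749% and the block 0.0% of all genes, and the difference for Sct, 0.93 (SE 1.08), turned to -0.22 without SI border replicate 3.

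Between the sites, Cck was higher in SI than in LI row >3 cells, by 4.64 on the log2 scale (SE 1.12, edgeR's quasi-likelihood test, adjusted p = 0.0152, range over the alternatives 6.7e-06 to 0.335). Of all genes 4.09% were called in this comparison, 1 of the 10 members was, and the members' median was 1.75 against 0.00 over all genes. The call was lost by DESeq2, which called 6.34% of all genes and no member, and without SI row >3 replicate 2 (adjusted p = 0.0840), LI row >3 replicate 1 (0.0799) or LI row >3 replicate 2 (0.119). Gip had counts in 2 of 3 SI libraries and in no LI library, which is at least 136-fold higher in SI against the floor of 3 counts over the LI group (adjusted p = 0.126). Nts was 3.84 higher in SI (SE 1.53, adjusted p = 0.228) and Sst 3.05 higher (SE 1.45, adjusted p = 0.354). Gcg (2.5, SE 2.02), Chga (1.01, SE 1.16), Pyy (0.95, SE 1.16), Chgb (0.74, SE 1.30) and Tph1 (0.41, SE 0.944) had higher means in SI and Sct a lower one (-0.98, SE 0.738). The sign for Tph1 rests on SI row >3 replicate 2, without which it was -0.05.

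Without the SI libraries of replicate 3, 5 of the 10 members differed between SI and LI row >3 cells, where 12.2% of all genes were called. Cck (log2 fold change 5.17, SE 0.736, adjusted p = 6.7e-06), Nts (4.45, SE 1.11, adjusted p = 0.0249) and Sst (3.63, SE 0.859, adjusted p = 0.0168) were higher in SI, as was Gip, at least 167-fold (adjusted p = 0.0166). Sct was lower in SI (log2 fold change -1.40, SE 0.291, adjusted p = 0.00218). The ranges of the adjusted p over the alternatives were 0.025 to 0.66 for Nts, 0.017 to 0.667 for Sst, 0.017 to 0.375 for Gip and 0.0022 to 1 for Sct.

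At the centre and border no member differed between the sites with all libraries, by edgeR's quasi-likelihood test, at an unadjusted p under 0.05 or by DESeq2, while edgeR called 1.99% and 1.76% of all genes and DESeq2 4.64% and 4.54%. The log2 fold change of Sct between SI and LI was -1.68 at the centre (SE 0.787, adjusted p = 0.353) and -0.75 at the border (SE 0.757, adjusted p = 0.796). Without the SI libraries of replicate 3 the difference was -3.28 at the centre (SE 0.398, adjusted p = 7.3e-06, range over the alternatives 7.3e-06 to 0.68) and -1.88 at the border (SE 0.364, adjusted p = 0.00180, range 0.0018 to 1), and leaving out SI centre replicate 3 alone also gave a call at the centre (-3.29, adjusted p = 0.0251). Of all genes 10.9% and 8.11% were called without the 3 libraries. Chgb was at -1.07 at the centre (SE 1.31, adjusted p = 0.814).

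Over all 18 libraries, levels of Sct moved with genes of goblet cells, the mucus-secreting cells, rather than with the other members. Within SI replicates 1 and 2 alone, Sct rose with the summed CPM of the other 9 members. There it went from 1.10 CPM beside 47.8 in centre replicate 1 to 22.9 beside 604 in row >3 replicate 2. No correlation was computed without the SI libraries of replicate 3. Over the 18 libraries, which differ in depth and site, Pearson's r between the log2 CPM of Sct and the mean of the other 9 genes was -0.0929, while each of those 9 had an r between 0.614 and 0.872 with the mean of the rest. The log2 sum of 7 goblet cell genes had an r of 0.866 with log2 Sct CPM and of 0.0865 with the log2 sum of the other 9 members. The goblet sum was 754, 1341 and 10645 CPM in SI centre and 51652, 36473 and 32503 in SI row >3, and Sct 1.10, 3.17 and 15.5 CPM and 19.4, 22.9 and 47.2 CPM in the same libraries. In LI the goblet sum lay between 7435 and 12129 CPM in centre and between 16160.2 and 25209 in row >3. None of the 7 goblet genes was at 0 in any group. The sum of 7 LI region genes was 48.5, 48.2 and 394 CPM in SI centre and 72.9, 80.5 and 3120 CPM in SI row >3. Like Sct, it was highest in replicate 3 of both groups. In LI it lay between 593 and 633 CPM in centre and between 1470 and 2061 CPM in row >3. No correlation of Sct with that list is given here. The part of goblet cells, of site or of LI-like content in the values of Sct was not tested.

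**Figure D3:**
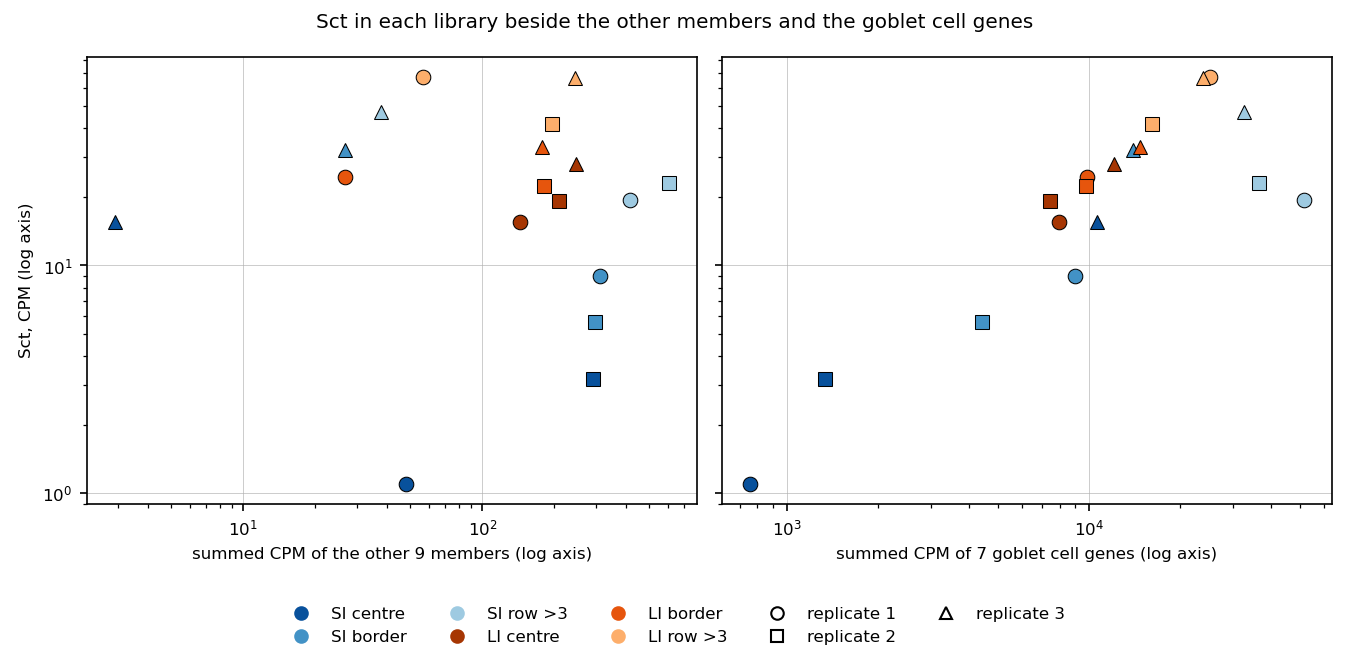
CPM of Sct (log axis) in each of the 18 libraries against the summed CPM of the other 9 members (left) and of 7 goblet cell genes (right), both on log axes, with colours for groups and circles, squares and triangles for replicates 1, 2 and 3. The left panel shows no common trend over all 18 libraries. Its lowest sum, 2.89 CPM in SI centre replicate 3, goes with a Sct level of 15.5 CPM. Circles and squares of SI alone rise together there. In the right panel points rise together.

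The genes with the pattern closest to the mean of the 10 members, by Pearson's r over the 18 libraries among 14345 genes with a mean count of at least 10, were Dync1i2 (r = 0.920), Neurod1 (0.885), Cpox (0.881), Fev (0.875) and Hsp90b1 (0.870). Neurod1 is the transcription factor that drives enteroendocrine differentiation, and Fev that of serotonin-producing cells. Neurod1 was at 0.275, 1.70 and 0 CPM in SI centre, 4.18, 5.0001 and 0.699 CPM in SI row >3, 0.638, 2.51 and 3.19 CPM in LI centre and 0.501, 2.39 and 2.83 CPM in LI row >3. The SI libraries of replicate 3 and the LI libraries of replicate 1 were the lowest of their groups for Neurod1. For Sct alone, a search added after its values were seen, the closest were Ndrg1 (0.981), Pck1 (0.978), Mgat4b (0.973), Pdia5 (0.973) and Fut2 (0.968). Ndrg1 was at 13.7, 16.8 and 106 CPM in SI centre and 228, 197 and 305 CPM in LI row >3.

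Transcription factors of the enteroendocrine lineage rose in part from SI centre to row >3. Of 21 tested, 4 were higher and 2 lower by edgeR's quasi-likelihood test, beside 13.2% of all genes called in this comparison, with a list median of 1.66 on the log2 scale. Pax6 (4.22, SE 1.08, adjusted p = 0.0100), which acts on hormone genes directly, was at 0, 0.849 and 0 CPM in SI centre and 4.95, 9.58 and 0.155 CPM in SI row >3. Rfx6, a factor of gut and islet endocrine cells, rose by 3.15 (SE 0.845, adjusted p = 0.0170). Sox4, a factor of early progenitors that stem cells also use, fell by 2.10 (SE 0.305, adjusted p = 0.000233). With the block within site, where 22.8% of all genes were called and 12.4% higher, 10 factors were higher and 3 lower, among them Neurod1 (2.40, SE 0.481, adjusted p = 0.000687). Neurog3, the factor that commits progenitors to the lineage, was at 0.236, 1.70 and 0 CPM in SI centre and 1.26, 1.37 and 1.01 CPM in SI row >3.

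Genes of hormone processing and storage followed the same direction. Among 22 of them 6 rose and 1 fell from SI centre to row >3, beside 13.2% of all genes called in either direction, with a list median of 1.56. Ptprn2, a phosphatase-like protein of the granule membrane, rose by 2.61 (SE 0.348, adjusted p = 0.000127), Scg3, a granin-binding granule protein, by 5.27 (SE 1.25, adjusted p = 0.00552), Syt7, a calcium sensor of exocytosis, by 2.51 (SE 0.535, adjusted p = 0.00661), and Scg2, a further granin, by 3.52 (SE 0.894, adjusted p = 0.00781). In the SI libraries of replicate 3, Syt7 was at 25.1, 47.5 and 79.5 CPM in centre, border and row >3, the highest of each group, whereas Scg2 and Scg3 were at 0 in all 3. Between the sites Pam, the enzyme that amidates peptide hormones, was lower in SI centre than in LI centre, by -1.21 (SE 0.242, adjusted p = 0.00936), and Scg2 was higher in SI row >3 than in LI row >3, by 6.51 (SE 1.30, adjusted p = 0.00272).

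Of 7 genes for amine synthesis and transport, 2 rose from SI centre to row >3, with a list median of 0.68 and 13.2% of all genes called. Gch1, which makes the cofactor of tryptophan hydroxylase, rose by 2.82 (SE 0.443, adjusted p = 0.000228), and Slc18a1, the vesicular transporter that loads serotonin into granules, by 1.87 (SE 0.511, adjusted p = 0.0171). Slc18a1 was also 2.40 higher in SI than in LI row >3 cells (SE 0.532, adjusted p = 0.0107). Of 15 receptors tested, with a list median of 1.68, Ffar2, a receptor for short-chain fatty acids, was the 1 that rose from SI centre to row >3, a smaller share than over all genes (3.19, SE 0.471, adjusted p = 0.000155). It was at 0.629, 2.10 and 4.09 CPM in SI centre and 22.3, 25.2 and 13.4 CPM in SI row >3. Among 7 other gut hormones, with a list median of 2.62, Ghrl, ghrelin, rose by 4.09 (SE 0.978, adjusted p = 0.00628) and was 3.73 higher in SI than in LI row >3 cells (SE 0.941, adjusted p = 0.0227). From LI centre to row >3 none of the genes of these 5 lists was called by edgeR's quasi-likelihood test, which called 0.0187% of all genes, and with the block within site (2.59%) Sox4 alone was, lower by -1.22 (SE 0.172, adjusted p = 0.00121).

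**Figure D4:**
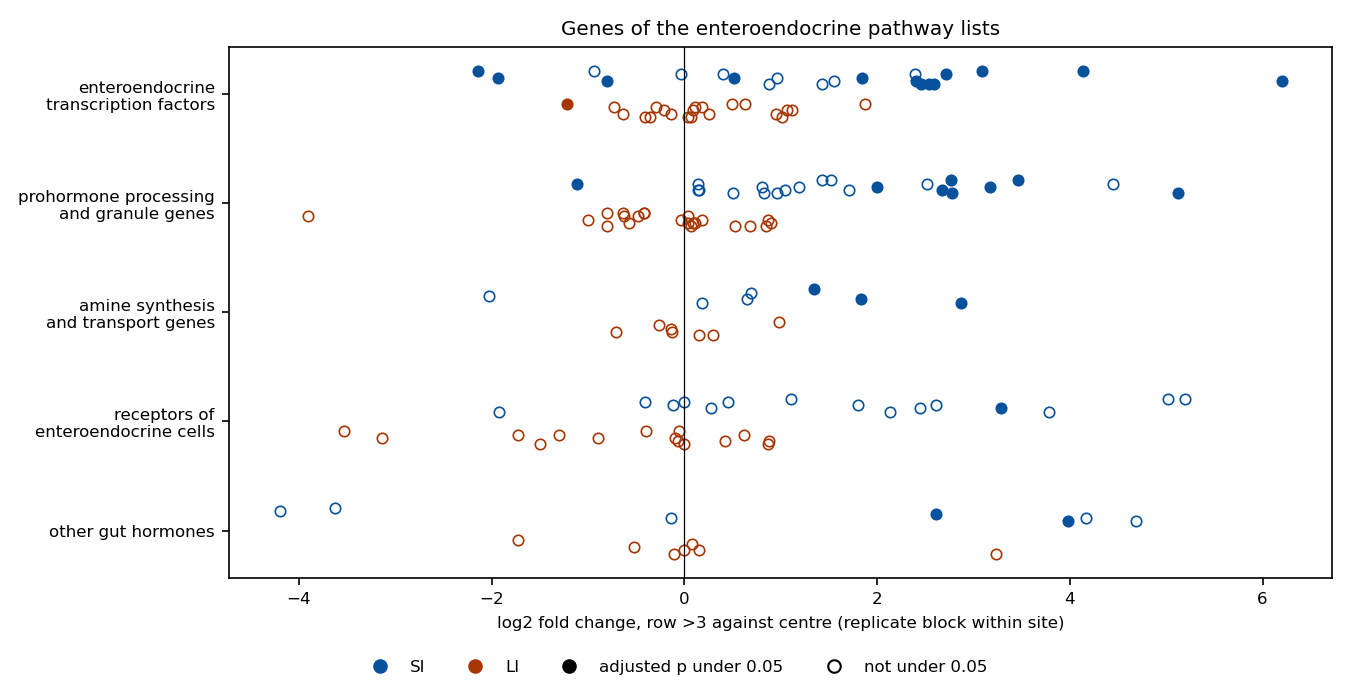
Log2 fold change of row >3 against centre for the genes of 5 enteroendocrine lists, in SI (blue) and LI (orange), from the fit with a replicate block within site, with filled points at an adjusted p under 0.05. Filled SI points lie mostly right of 0, and Sox4, at -1.22, is the only filled LI point.

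Markers of other epithelial cells moved with the level too. From SI centre to row >3, where 13.2% of all genes were called, 5 of 7 goblet cell genes rose and 1, Clca1, fell by 2.04 on the log2 scale (SE 0.369, adjusted p = 0.00100), with Tff3 at 3.99 (SE 0.744, adjusted p = 0.00351). Of 7 enterocyte genes 3 rose, among them Sis, a disaccharidase (3.70, SE 0.854, adjusted p = 0.0125). Of 7 tuft cell genes 1, Plcb2, rose (2.61, SE 0.644, adjusted p = 0.0158), and the list sum was 30.7, 37.4 and 391 CPM in SI centre and 356, 394 and 91.8 CPM in SI row >3. Paneth cell genes, with sums of 151 to 5057 CPM in SI, gave 0 calls of 6 in this comparison and 0 with the block, which called 22.8% of all genes. Without the SI libraries of replicate 3, where 17.1% of all genes were called, 6 of the 7 tuft cell genes were higher in row >3, led by Dclk1 (3.96, SE 0.485, adjusted p = 0.000121). In that fit 1 of the 6 Paneth cell genes, Mmp7, was also higher (1.31, SE 0.411, adjusted p = 0.0330), with 6 of 7 goblet cell genes and 3 of 7 enterocyte genes. The part of these cells in the members' values was not tested.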

How the data were processed

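Lgr5+ cells sorted at 3 GFP levels from SI and LI crypts gave 18 libraries in 6 groups of 3, with total counts between 8312093 and 31940965. Adapters were removed and reads mapped to mm10 by the authors with STAR, which also gave the deposited raw counts per gene. Their second deposited table holds signal values, which are the counts divided by 1 size factor per library (constant to a relative deviation of 9.88e-15). It lists 24814 genes, none with a total under 2 counts. The study's methods call the 3 replicates of a group biological. The sources used here do not give the annotation release, counting strand, stretch of gut or which mouse gave which library. No pair of libraries was identical.

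Counts were tested with edgeR 4.0.16 in R 4.3.3 (TMM factors, mean count above 0, robust glmQLFit, glmQLFTest), with all 6 groups fitted together and 12 residual degrees of freedom left. A call needed a two-sided p under 0.05 after Benjamini-Hochberg adjustment over 26717 genes. Same-numbered libraries were compared by the correlation, over 14345 genes, of their deviations from the group means. Within a site it was 0.185 to 0.620 in every pair, so the number was taken to pair libraries within a site, and a block within site is given beside results. Between SI and LI at the same level it was -0.0484 to 0.195, and numbers were not taken to pair the sites. The LI-like content of the SI libraries of replicate 3 enters these values. Whether 1 mouse gave libraries of both sites was not tested. Alternatives were DESeq2 1.42.0, filters, scalings, blocks, fewer libraries and libraries left out singly. A fit with edgeR's older quasi-likelihood option, and the block without the SI libraries of replicate 3, were added after seeing the data. The fit was tested on simulated counts.

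The 10 members and all gene lists were chosen with earlier results of these data known. Named genes were the members, up to 4 called genes per list and comparison with the smallest adjusted p, Lgr5, marker genes, and the 5 genes closest to the members' mean. Some genes of the lists are not reported here by name. Genes named besides these (Neurog3, Chat and, for values beside the members, Neurod1) were chosen after their values were seen. Gene positions were read from GENCODE M21 on GRCm38, which holds 42462 of the 43346 identifiers, and no member overlaps another gene there. CPM per kilobase used the exon length of each gene. Intervals for single counts were not computed, and floors cover counting error only. Figures were drawn with matplotlib 3.10.9.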

Additional observations from a re-analysis of the deposited data

Results flagged for a closer look

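The difference between SI and LI in the change of Pyy from centre to row >3 passed the test of that interaction when libraries of a site were paired by replicate number (log2 difference 4.04, adjusted p = 0.0291 by edgeR's quasi-likelihood test), and did not without the pairing (4.15, adjusted p = 0.741). Pyy was higher in row >3 than in centre in 2 of 3 SI pairs, with 0 counts in both libraries of the remaining one, and lower in 3 of 3 LI pairs.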

How the results depend on the processing

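Counts of members called changed with the setting. For SI row >3 against SI centre, 1 member was called with all libraries, 2 with filterByExpr, 6 with the replicate block within site, 2 with the replicate block over all libraries, 0 with the groups compared only or the older quasi-likelihood option, 3 without the SI libraries of replicate 3 and 7 when these were left out and the block kept, and 0 to 2 with libraries left out singly. For SI against LI row >3 the count of 1 became 0 with DESeq2, the groups compared only or the older option, 2 with the block over all libraries, 5 without the SI libraries of replicate 3 and 0 to 2 with libraries left out singly. For SI against LI the count of 0 became 1 without the SI libraries of replicate 3, at the centre and at the border, and 0 to 1 at the centre with libraries left out singly. For LI row >3 against centre it became 1 with the block within site, the groups compared only, without the SI libraries of replicate 3, or with both changes. For the row >3 interaction it became 1 with the block within site, 1 without the SI libraries of replicate 3, and 3 with both. The replicate block over all libraries treats same-numbered libraries of both sites as paired, which the labels do not state and the low correlations between sites do not settle. The cause of these changes was not tested.

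Of the members' log2 fold changes given by value above from the fit of all libraries, 3 changed sign with libraries left out singly. These were Tph1 between SI and LI row >3 (-0.05 to 0.89), Chgb between LI row >3 and centre (-0.68 to 0.07) and Sct in the border interaction (-0.22 to 2.53). Fold changes not given by value also crossed 0, such as Gcg between SI and LI centre (-8.2 to 0.51) and between LI row >3 and centre (-1.67 to 0.39). Another was Cck between SI border and centre (-0.81 to 2.07). None of the 305 values of the fold changes given by value changed sign under other settings. Among those not given, some did. Between SI and LI centre, Gcg went from -0.3 to 0.29 and Chga from -0.42 to 0.17 without the SI libraries of replicate 3. Values of the list genes with libraries left out singly are not reported here. Over all genes, 3518 were called for SI row >3 against centre, and 6103 with the block within site. For LI these were 5 and 692, for the row >3 interaction 0 and 620, and for SI border against centre 3 and 620. SI against LI gave 532, 470 and 1092 calls at the centre, border and row >3, and 2854, 2122 and 3184 without the SI libraries of replicate 3. Low counts limit Gip, Cck, Pyy, Nts and Sst, which were at 0 in several libraries, and a count of 0 is a low level, not absence.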
